A study of Mus musculus with 6 samples.

Results

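Described here are 10 genes, 8 that act between receptors of the tumour necrosis factor (TNF) family and the transcription factor NF-kB and 2 grouped with them by name, across dendritic cells treated with calcium hydroxide nanoparticles or with vehicle. They are 4 TNF receptor-associated factors (Traf1, Traf2, Traf3 and Traf5), 2 partners of the deubiquitinase A20 (Tnip1 and Tnip3), 2 inhibitor of apoptosis ligases (Birc2 and Birc3) and 2 genes named for induction by TNF (Tnfaip2 and Tnfaip8). They were chosen by symbol, with earlier results of these data known. All 10 were found among the 23398 genes of the deposited table and among the 10682 genes that passed the filter on low values. The cells were grown from mouse bone marrow in DMEM with serum and antibiotics and exposed for 12 hours to vehicle (3 libraries) or to Ca(OH)2 nanoparticles (3 libraries), and each library was made from total RNA. Strain, sex, age, particle dose and the number of animals behind the libraries are not given in the sources used here, so p-values measure the spread between libraries, which may be technical.

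TRAF proteins are adaptors that bind the tails of TNF family receptors such as CD40 and TNF receptor 2. TRAF2 carries the ligases cIAP1 (Birc2) and cIAP2 (Birc3) to the receptor, where they build ubiquitin chains that activate the canonical NF-kB pathway. The same ligases, with TRAF2 and TRAF3, mark the kinase NIK (Map3k14) for degradation in resting cells and so hold back the non-canonical pathway. A20 (Tnfaip3) and its ubiquitin-binding partner ABIN-1 (Tnip1) dampen the signal, and ABIN-3 (Tnip3) is a relative of ABIN-1. Several of these genes are textbook NF-kB targets, and dendritic cells are known to induce them when they mature.

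Expression is given in FPKM, here fragments per kilobase of gene length with a scale per library that followed median-of-ratios size factors, not total reads. Whole reads could be recovered from these values, and totals were 17293176 to 18230642 reads in vehicle and 17797447 to 21983139 reads in nanoparticle libraries. Reads behind a single value of the 10 genes ran from 255 (Birc2, vehicle library 1) to 18950 (Tnfaip2, nanoparticle library 1). Nanoparticle library 1 stood apart from its group: across tested genes its correlation with nanoparticle libraries 2 and 3 was 0.9423 and 0.9282, against 0.9895 between those and 0.9926 to 0.9938 between vehicle libraries. Results are therefore also given without it. The 9 dendritic cell markers summed to 5359 to 5766 FPKM in vehicle and 3187 to 7087 FPKM in nanoparticle libraries. Most of this sum was Cd74, at 3902 to 4264 FPKM in vehicle and 2270, 4790 and 5273 FPKM in nanoparticle libraries 1 to 3. H2-Ab1 added 982 to 1035 FPKM in vehicle and 494, 1060 and 1162 FPKM treated. Of the 8 markers tested, 2 were higher and 3 lower past the threshold (an adjusted p of 0.05 in limma's moderated test). Those higher were Ccr7 (1.75 to 2.62 FPKM in vehicle, 104.8 to 123.9 FPKM treated) and Fscn1 (2.23 to 4.18 and 65.8 to 227.1 FPKM). Those lower were Cd209a (5.17 to 6.21 and 0 to 0.0763 FPKM), Clec10a (5.63 to 7.62 and 0.507 to 1.04 FPKM) and Zbtb46 (3.66 to 4.15 and 1.74 to 2.76 FPKM). Itgax was at 248 to 456 FPKM in the 6 libraries and did not pass, and Flt3 had at most 8 reads in a library. Summed markers of T, B and NK cells were at most 1.94, 0.394 and 0.0803 FPKM in any library. The 7 macrophage markers summed to 690.2 to 703.6 FPKM in vehicle and 1301 to 1755 FPKM in nanoparticle libraries. Past the threshold 4 were higher and 1 lower (17.0% and 16.2% of all tested genes), and 0 of the 7 were at 0 in all libraries. Cd14 rose (57.7 to 63.4 FPKM in vehicle, 473 to 645 FPKM treated). So did Cd68 (294 to 304 and 426 to 589 FPKM), Adgre1 (62.9 to 68.3 and 132 to 276 FPKM) and Fcgr1. Mrc1 fell (51.8 to 62.8 and 3.1 to 10.6 FPKM). Csf1r (158 to 159 and 133 to 175 FPKM) and Mertk (22.2 to 24.8 and 15.7 to 26.3 FPKM) overlapped between groups. The 10 neutrophil markers summed to 35.1 to 39.8 and 51.05 to 124.5 FPKM, with 2 above the filter and 1 of them higher. Mpo, Elane and Retnlg were at 0 in all vehicle libraries and at 5 reads or fewer in the treated ones. S100a9 was at 0.962 to 1.65 FPKM in vehicle and 0.352, 13.2 and 10.2 FPKM in nanoparticle libraries 1 to 3. Ngp was at 0.246 to 0.902 FPKM in vehicle and 0.0501, 4.30 and 3.23 FPKM treated. Camp was at 0 to 0.190 FPKM in vehicle and 0.242, 1.83 and 1.99 FPKM treated. Cxcr2 went the other way, from 0.395 to 0.801 FPKM in vehicle to 0 to 0.139 FPKM treated. Of 6 mast cell and basophil markers, 5 were in the table and summed to 1.55 to 2.90 and 8.94 to 25.3 FPKM, with Hdc at 6.69 to 24.1 FPKM of the latter. The part of these shifts in the results below was not tested, and in bulk RNA a change in the number of cells of a type and in RNA per cell cannot be told apart.

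All 10 genes were higher with nanoparticles, and in each of them every nanoparticle library lay above every vehicle library. Such a separation upwards was seen in 25.9% of all tested genes. All 10 also passed an adjusted p of 0.05 in limma's moderated test, in the higher direction, which 17.0% of all tested genes did (16.2% passed in the lower direction). Because the 10 genes were chosen with earlier results of these data known, these counts are no test of their families. Of relatives outside the 10, Tnip2 (log2 change 0.03) and Xiap (-0.28) did not pass. Traf6 (0.82) did, but not with libraries scaled by total reads. The median log2 change of the 10 genes was 1.03, beside -0.0010 over all tested genes. Fitted changes fell into a larger and a smaller set, with Traf1, Tnip1, Birc3 and Tnfaip2 between 1.86 and 3.53 on the log2(FPKM + 1) scale and the other 6 between 0.54 and 1.07. With libraries scaled by total reads, the median of all tested genes moved to -0.28, calls over all genes went from 1817 higher and 1733 lower to 1108 higher and 3610 lower, and the median of the 10 genes was 0.73. None of the 10 changed direction under the scalings tried. By total reads 9 of the 10 stayed past the threshold (10.4% of all tested genes, higher), and with equal FPKM sums 8 did (8.25%).

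**Figure D1:**
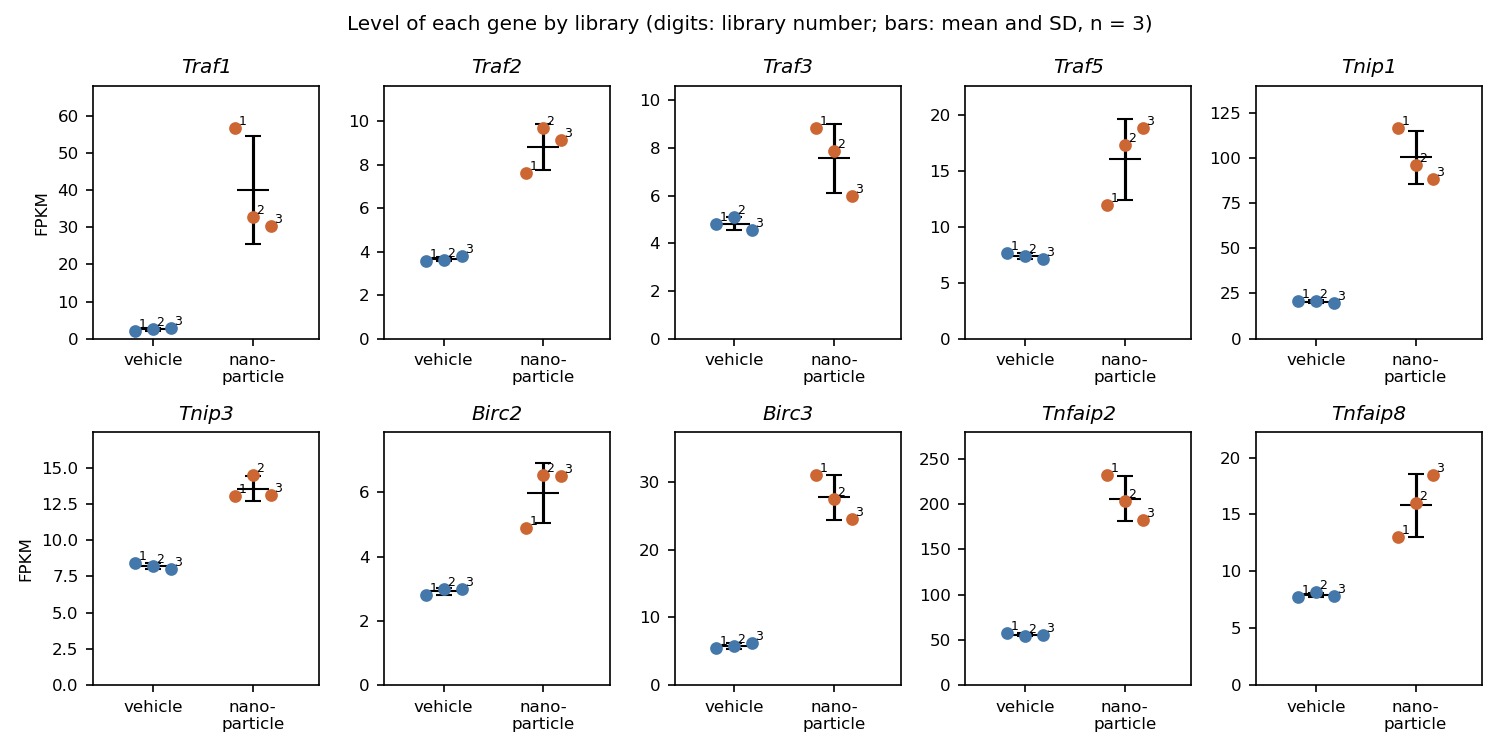
FPKM of each of the 10 genes (y axis, from 0) in the 3 vehicle (blue) and 3 nanoparticle (orange) libraries, with digits for the library number and bars for the mean and SD. No nanoparticle point reaches down to a vehicle point in any panel, and nanoparticle library 1 is the highest of its group in 5 panels and the lowest in 5.

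The stretches just upstream of the RefSeq start sites are shown because these genes rose together and several are known NF-kB targets. RefSeq promoters on GRCm38.p6 (250 bases before to 50 after the start) were found for 9 of the 10 genes, in 10 entries. Each was searched on both strands for the NF-kB consensus (a decamer, named only because it holds ambiguous letters) and for the AP-1 site TGANTCA. The NF-kB consensus was found in 4 of the 9 genes (Tnip1, Tnip3, Traf3 and Tnfaip2) and in 8.46% of all 32851 promoter entries. TGANTCA was found in 0 of the 9, and in 7.81% of all entries. The first counts are of genes, chosen with earlier results known, and the percentages are of entries, so these values are no test of enrichment. Capitals mark the bases of a match. The Tnip1 stretch is chr11:54962941-54963190 (minus strand), and its capitals at 58 to 47 bases before the start hold 3 overlapping matches. For Tnip3 it is chr6:65590148-65590397 (plus strand), with the match ending 45 bases before the start, and for Traf3 chr12:111166120-111166369 (plus strand), with the match ending at the last base before it.
Tnip1: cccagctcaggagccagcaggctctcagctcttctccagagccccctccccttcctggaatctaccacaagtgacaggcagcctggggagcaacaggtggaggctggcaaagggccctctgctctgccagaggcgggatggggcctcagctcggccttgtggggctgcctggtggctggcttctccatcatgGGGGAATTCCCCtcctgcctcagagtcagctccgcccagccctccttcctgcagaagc
Tnip3: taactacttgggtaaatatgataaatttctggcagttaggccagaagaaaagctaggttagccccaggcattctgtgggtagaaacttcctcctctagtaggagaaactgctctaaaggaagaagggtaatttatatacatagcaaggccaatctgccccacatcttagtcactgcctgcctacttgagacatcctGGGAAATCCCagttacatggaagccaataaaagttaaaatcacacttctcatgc
Traf3: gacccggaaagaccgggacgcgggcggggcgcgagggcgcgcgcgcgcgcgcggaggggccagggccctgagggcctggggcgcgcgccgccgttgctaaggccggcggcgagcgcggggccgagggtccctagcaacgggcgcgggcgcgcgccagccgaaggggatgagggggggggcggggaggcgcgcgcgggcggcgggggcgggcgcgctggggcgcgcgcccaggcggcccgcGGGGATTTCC
For Tnfaip2 the 30 bases around the match are given, chr12:111442627-111442656 (plus strand), because an annotated transcript starts upstream of it.
Tnfaip2: gactattttaGGAGGGCCCCtccagggtcg
Traf1 (chr2:34961773-34962022 (minus strand)) and Birc3 (chr9:7873187-7873420 (minus strand), trimmed to the part free of annotated exons) had neither motif in this window and are shown beside them because they had the largest changes of their families.
Traf1: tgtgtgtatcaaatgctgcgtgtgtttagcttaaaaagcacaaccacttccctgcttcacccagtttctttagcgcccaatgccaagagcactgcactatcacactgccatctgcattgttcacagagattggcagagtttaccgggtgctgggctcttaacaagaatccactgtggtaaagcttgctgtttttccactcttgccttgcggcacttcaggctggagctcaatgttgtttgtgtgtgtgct
Birc3: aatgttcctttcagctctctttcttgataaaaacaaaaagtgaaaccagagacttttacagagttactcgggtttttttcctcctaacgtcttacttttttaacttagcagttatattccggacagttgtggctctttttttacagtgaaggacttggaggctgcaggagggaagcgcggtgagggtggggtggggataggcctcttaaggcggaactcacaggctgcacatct
A match is a string of letters and not a measured binding site, and genes with and without one were found among the larger and the smaller changes alike: Tnip1 and Tnfaip2 held it, Traf1 and Birc3 did not, and Traf3, with the smallest change, did.

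Traf1 encodes a TRAF protein without the RING domain of its relatives, which pairs with TRAF2 and is known as an induced gene of activated immune cells. Traf1 (ENSMUSG00000026875) spans 34941750 to 34961772 on chromosome 2, minus strand (GENCODE M21 on GRCm38, as for all positions below), and, like the other 9, is protein coding. It was at 2.04, 2.51 and 2.79 FPKM in vehicle libraries 1 to 3 and at 56.8, 32.7 and 30.5 FPKM in nanoparticle libraries 1 to 3. Every treated library was thus more than 10 times the highest vehicle library (10.96-fold at the closest). Nanoparticle library 1 was at 1.80 times the mean of nanoparticle libraries 2 and 3. Means were 2.44 ± 0.378 and 40.03 ± 14.6 FPKM (SD, n = 3 each), a ratio of 16.4, with a log2 change of 3.53 (SE 0.25, adjusted p = 0.000236 by limma). Without nanoparticle library 1 the log2 change was 3.25 (SE 0.10).

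Traf2, the adaptor that recruits the cIAP ligases, changed less. Traf2 (ENSMUSG00000026942, chromosome 2, minus strand, 25517982 to 25546940) was at 3.58, 3.61 and 3.78 FPKM in vehicle and 7.62, 9.68 and 9.15 FPKM in nanoparticle libraries 1 to 3. Treated libraries were about evenly high, with library 1 the lowest of them and still 2.01 times the highest vehicle library. The log2 change was 1.07 (SE 0.11, adjusted p = 0.000899 by limma). Traf5, whose product is a close relative of TRAF2 and TRAF3 and also binds CD40, had a change near that of Traf2. Traf5 (ENSMUSG00000026637, chromosome 1, minus strand, 191997205 to 192092559) was at 7.63, 7.36 and 7.12 FPKM in vehicle and 11.9, 17.3 and 18.8 FPKM in nanoparticle libraries 1 to 3. Nanoparticle library 1 was again the lowest of its group and above all vehicle libraries. Its log2 change was 1.00 (SE 0.17, adjusted p = 0.00603 by limma), and 1.18 without nanoparticle library 1.

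Traf3, the adaptor that brings NIK to the cIAP ligases, had the smallest change of the 10 genes. Traf3 (ENSMUSG00000021277, chromosome 12, plus strand, 111166370 to 111267153) was at 4.80, 5.12 and 4.56 FPKM in vehicle and 8.84, 7.88 and 5.97 FPKM in nanoparticle libraries 1 to 3. Nanoparticle library 3 was only 1.17 times the highest vehicle library. The log2 change was 0.54 (SE 0.15, adjusted p = 0.0317 by limma). This call was lost in 7 of 15 alternatives: leaving out vehicle library 1, 2 or 3 gave an adjusted p of 0.108, 0.0879 and 0.120, leaving out nanoparticle library 2 gave 0.0958, no filter gave 0.0662, and scaling by total reads or by equal FPKM sums gave 0.241 and 0.564. Under these 2 scalings its log2 change was 0.25 and 0.14.

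The make-up of the TRAF family shifted toward Traf1. The summed level of Traf1 to Traf7, per length, was 30.8 ± 0.664 FPKM in vehicle and 86.9 ± 14.07 FPKM in treated libraries (SD, n = 3 each). Traf1 was 6.76%, 8.10% and 8.86% of that sum in vehicle libraries 1 to 3 and 55.2%, 40.4% and 39.8% in nanoparticle libraries 1 to 3. In vehicle only Traf4 had a smaller mean share (5.75%), and in every nanoparticle library Traf1 had the largest share of the 7. Traf5 and Traf7 held the largest mean shares in vehicle, at 23.9% ± 1.34 and 24.0% ± 0.982 (SD, n = 3), and held 19.1% ± 6.73 and 7.34% ± 1.004 with nanoparticles. Shares of Traf2 overlapped between groups (11.7% to 12.03% and 7.41% to 11.95%). The size of a share depends on the length each gene is divided by, here that of all annotated exons. This length was 8819 bases for Traf1 and 5101 bases for Traf2, against longest transcripts of 3436 and 4117 bases. The low vehicle share of Traf1 therefore does not show that it was a minor TRAF transcript.

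**Figure D2:**
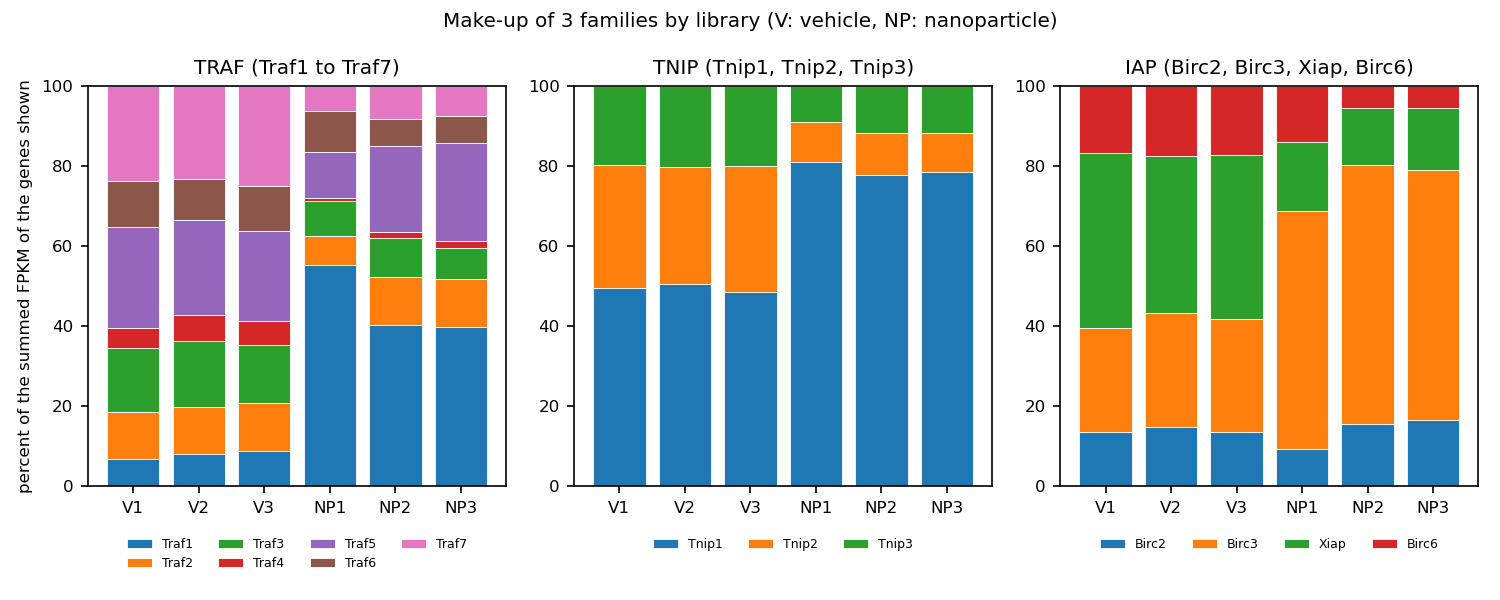
Stacked bars of each gene's percent of the summed FPKM of its family (y axis, 0 to 100) in the 6 libraries, for Traf1 to Traf7, Tnip1 to Tnip3, and Birc2, Birc3, Xiap and Birc6. The Traf1, Tnip1 and Birc3 segments are taller in each nanoparticle bar than in any vehicle bar.

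Ratios between relatives, 5 in all, were compared over the libraries with an exact permutation test, two-sided, on log2(FPKM + 1). This test cannot give a p below 0.1 with 3 libraries against 3. Like the shares, the size of a ratio depends on the length used for each gene, so a ratio below 1 does not rank 2 genes. The FPKM ratio of Traf1 to Traf2 was 0.569, 0.694 and 0.736 in vehicle and 7.46, 3.38 and 3.34 in nanoparticle libraries 1 to 3. Its log2 ratio differed by 2.46 between the groups (exact permutation p = 0.1, adjusted p = 0.125 over the 5 ratios). Traf3 to Traf2 differed in the other direction, by -0.53 (exact permutation p = 0.1, adjusted p = 0.125), with FPKM ratios of 1.21 to 1.42 in vehicle and 0.653 to 1.16 with nanoparticles. For Traf5 to Traf2 the difference was -0.07 (exact permutation p = 0.7, adjusted p = 0.7) and the groups overlapped, at 1.88 to 2.13 and 1.56 to 2.05. It was 0.02 without nanoparticle library 1.

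ABIN-1, the product of Tnip1, binds ubiquitin chains and links them to A20, and its loss is known to sensitise cells to TNF. Tnip1 (ENSMUSG00000020400) spans 54910785 to 54962917 on chromosome 11, minus strand. It was at 21.1, 20.6 and 19.7 FPKM in vehicle libraries 1 to 3 and 117, 96.3 and 88.3 FPKM in nanoparticle libraries 1 to 3. The vehicle libraries were close together, with a coefficient of variation of 3.4%, while the lowest treated library was 4.19 times the highest of them. The log2 change was 2.23 (SE 0.13, adjusted p = 0.000135 by limma), and 2.12 without nanoparticle library 1. Tnip3 (ENSMUSG00000044162, chromosome 6, plus strand, 65525313 to 65634040), which encodes ABIN-3, was at 8.45, 8.23 and 8.05 FPKM in vehicle and 13.1, 14.5 and 13.1 FPKM in nanoparticle libraries 1 to 3. Its treated libraries were the most alike of the 10 genes, with a coefficient of variation of 6.12%. The log2 change was 0.66 (SE 0.09, adjusted p = 0.00270 by limma). With equal FPKM sums that change was 0.23 and no longer past the threshold (adjusted p = 0.127 by limma). The promoter match shown above lies at a RefSeq start inside the annotated gene, and the deposited value sums reads over all annotated exons (10916 bases), so it does not separate transcripts from the start sites.

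Tnip1 thus took a larger share of the TNIP family, from 49.6% ± 0.999 to 79.02% ± 1.74 of the summed FPKM of Tnip1, Tnip2 and Tnip3 (SD, n = 3 each). The third relative, Tnip2, was at 11.8 to 13.05 FPKM in vehicle and 11.2 to 14.4 FPKM with nanoparticles, with a log2 change of 0.03 (adjusted p = 0.861 by limma). The FPKM ratio of Tnip3 to Tnip1 was 0.401, 0.400 and 0.409 in vehicle and 0.112, 0.151 and 0.148 in nanoparticle libraries 1 to 3, a difference of -1.58 in the log2 ratio (exact permutation p = 0.1, adjusted p = 0.125).

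Birc2 and Birc3 encode cIAP1 and cIAP2, RING ligases that ubiquitinate RIPK1 and NIK, and their genes lie side by side on the minus strand of chromosome 9. Birc3 (ENSMUSG00000032000, 7848699 to 7873186) was at 5.40, 5.75 and 6.18 FPKM in vehicle and 31.1, 27.5 and 24.5 FPKM in nanoparticle libraries 1 to 3. The groups were far apart, with the lowest treated library at 3.97 times the highest vehicle library. Birc3 had a log2 change of 2.08 (SE 0.12, adjusted p = 0.000122 by limma). Its neighbour Birc2 (ENSMUSG00000057367, 7818227 to 7837064) was at 2.79, 2.98 and 2.98 FPKM in vehicle and 4.91, 6.56 and 6.50 FPKM in nanoparticle libraries 1 to 3. Nanoparticle library 1, the highest for Birc3, was the lowest of its group for Birc2. The log2 change of Birc2 was 0.83 (SE 0.13, adjusted p = 0.00370 by limma). Of the 50-base windows of the longest Birc3 transcript, 7.66% also occur in transcripts of other genes, most often of Gm7019 (96 of 219 such windows). For Birc2 the share was 2.07%, most often with Birc3 (65 of 68 such windows). A small part of the reads could thus be shared.

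The FPKM ratio of Birc3 to Birc2 was 1.93, 1.93 and 2.07 in vehicle and 6.34, 4.20 and 3.77 in nanoparticle libraries 1 to 3, and the log2 ratio differed by 1.25 (exact permutation p = 0.1, adjusted p = 0.125). Among Birc2, Birc3, Xiap and Birc6, the share of Birc3 went from 27.6% ± 1.31 to 62.2% ± 2.75 of the summed FPKM (SD, n = 3 each). Xiap, the direct caspase inhibitor of the family, held 41.2% ± 2.27 in vehicle, the largest mean share of these genes, and 15.7% ± 1.50 with nanoparticles. Its own level was 7.87 to 9.03 FPKM in vehicle and 6.04 to 9.02 FPKM with nanoparticles, a log2 change of -0.28 that did not pass (adjusted p = 0.243 by limma). It passed as lower without nanoparticle library 1 (-0.45, adjusted p = 0.00290 by limma) and by total reads (-0.58, adjusted p = 0.0331 by limma).

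Tnfaip2, a gene first found as TNF-induced in endothelial cells and whose product takes part in forming membrane nanotubes, was the most abundant of the 10 genes in both groups. Tnfaip2 (ENSMUSG00000021281, chromosome 12, plus strand, 111442469 to 111455018) was at 57.7, 54.7 and 55.1 FPKM in vehicle and 233, 204 and 182 FPKM in nanoparticle libraries 1 to 3. All treated libraries were more than 3 times every vehicle library. The log2 change was 1.86 (SE 0.13, adjusted p = 0.000225 by limma), and 1.77 without nanoparticle library 1. Tnfaip8, which encodes a small lipid-binding protein linked to cell survival, is on chromosome 18 (ENSMUSG00000062210, plus strand, 49979427 to 50107173). It was at 7.76, 8.15 and 7.84 FPKM in vehicle and 13.0, 16.0 and 18.5 FPKM in nanoparticle libraries 1 to 3. The treated libraries spread widely, and the lowest was 1.59 times the highest vehicle library. Its log2 change was 0.90 (SE 0.14, adjusted p = 0.00388 by limma). An antisense transcript, C030005K06Rik, overlaps 12.7% of its exonic bases, and the counting is not stated to use strand, so reads of the pair cannot be told apart there.

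Levels per length changed their order between the groups. In vehicle the order by mean was Tnfaip2, Tnip1, Tnip3, Tnfaip8, Traf5, Birc3, Traf3, Traf2, Birc2 and Traf1, and of these neighbours only Tnip3 and Tnfaip8 overlapped in their libraries. With nanoparticles it was Tnfaip2, Tnip1, Traf1, Birc3, Traf5, Tnfaip8, Tnip3, Traf2, Traf3 and Birc2. Here the neighbours Traf1 and Birc3, Traf5 and Tnfaip8, Tnfaip8 and Tnip3, Traf2 and Traf3, and Traf3 and Birc2 overlapped. Traf1 thus went from the lowest mean of the 10 genes to the third highest, that is from the 22.6 to the 87.7 percentile of all tested genes. Both orders and both percentiles rest on the length of all annotated exons. For Traf1 this is 8819 bases, against 3436 bases in its longest transcript, and for Traf2 5101 against 4117 bases. A length nearer the longest transcript would place Traf1 higher in both groups, and the order under other lengths was not tested.

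The 10 genes divided evenly in how nanoparticle library 1 stood within its group. It was the highest of the 3 treated libraries for Traf1, Traf3, Tnip1, Birc3 and Tnfaip2 and the lowest for Traf2, Traf5, Tnip3, Birc2 and Tnfaip8. Relative to the mean of nanoparticle libraries 2 and 3 it was at 1.20 to 1.80 times for the former and at 0.661 to 0.946 times for the latter. Among the 1817 genes past the threshold in the higher direction, it was the highest in 54.9% and the lowest in 34.2%. Leaving it out kept all 10 genes past the threshold (34.3% of all tested genes then passed in that direction), with log2 changes of 0.43 to 3.25.

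**Figure D3:**
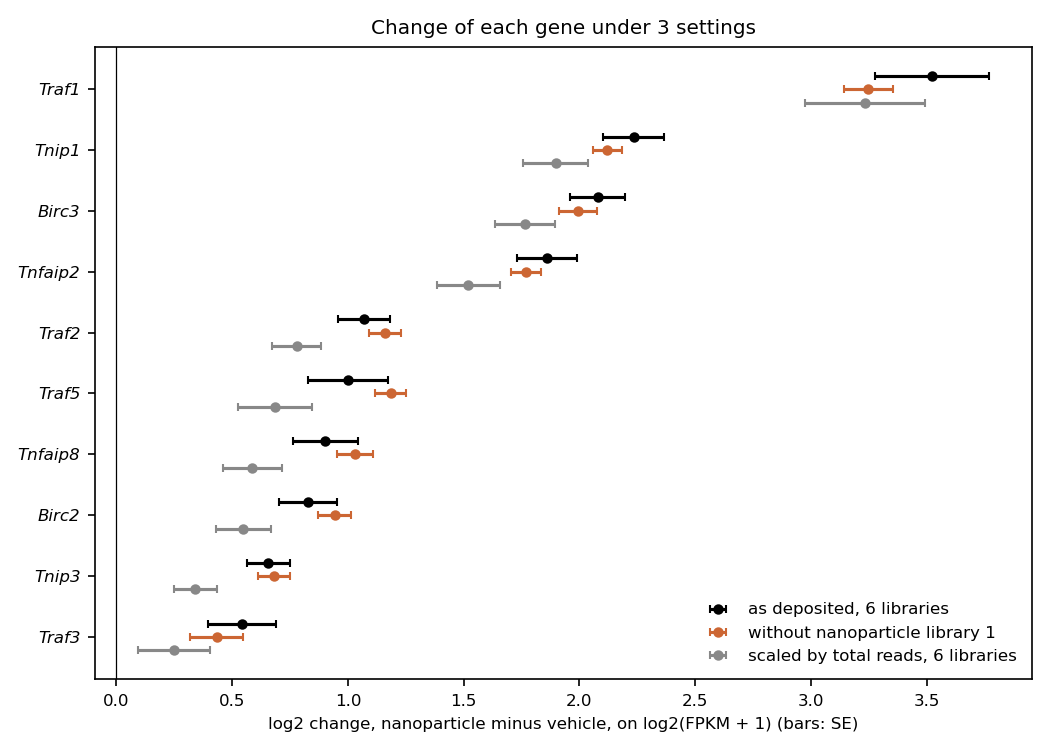
Log2 change of each gene (x axis, nanoparticle minus vehicle on log2(FPKM + 1), bars for the SE) with values as deposited (black), without nanoparticle library 1 (orange) and scaled by total reads (grey). Every point lies to the right of 0, with Traf1 at 3.53 at the top and Traf3 at 0.54 at the bottom, and the grey points lie to the left of the black ones.

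Other genes of the pathway were described from 6 lists of 64 genes, of which 57 passed the filter, and 20 of these were higher and 3 lower past the threshold (17.0% and 16.2% of all tested genes). These counts moved with the scaling and with 1 library: by total reads 14 were higher and 13 lower (10.4% and 33.8% of all tested genes), and without nanoparticle library 1 they were 28 and 12 (34.3% and 30.5%). In the list of other TRAFs and TRAF-binding proteins, 3 of 9 tested genes were higher and 1 lower, with a median log2 change of 0.39. Tank, an adaptor that binds TRAF2 and TRAF3, rose from 9.87, 11.6 and 11.9 FPKM to 43.9, 38.4 and 34.1 FPKM in libraries 1 to 3 (log2 change 1.71, adjusted p = 0.000328 by limma). Trafd1, an interferon-induced TRAF-type zinc finger gene, rose by a log2 change of 1.70, and Traf3ip3 fell by 0.84 on the log2 scale. The third gene that was higher was Traf6, the adaptor of Toll-like and interleukin-1 receptors (picked for its values), at 10.5, 5.49 and 5.11 FPKM in the treated libraries against 3.48 FPKM or less in each vehicle library (log2 change 0.82, adjusted p = 0.0446 by limma). Traf6 lost this call by total reads (log2 change 0.54, adjusted p = 0.129 by limma). Without nanoparticle library 1 it kept the call with a log2 change of 0.53 (adjusted p = 0.00113 by limma). By total reads 2 genes of this list were higher and 3 lower.

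Among A20, its partners and other deubiquitinases, 5 of 10 tested genes were higher and 1 lower (median log2 change 0.52). Tnfaip3, which encodes A20, was at 11.2, 10.5 and 10.8 FPKM in vehicle and 122, 61.9 and 51.2 FPKM in nanoparticle libraries 1 to 3. All treated libraries were far above vehicle and library 1 was the highest, as for Tnip1. Its log2 change was 2.64 (SE 0.31, adjusted p = 0.00140 by limma), and 2.27 without nanoparticle library 1. Rnf11, a subunit of the A20 complex, rose by a log2 change of 0.81 with closely placed treated libraries (24.6, 26.01 and 25.2 FPKM). Usp18, better known as the interferon-induced protease that removes ISG15, had the largest change of the list at 4.72 (adjusted p = 7.1e-05 by limma). The single gene that was lower was Itch, a ligase of the A20 complex (picked for its values), with a log2 change of -0.59 (adjusted p = 0.00576 by limma).

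For the other IAP proteins and their antagonists, 2 of 8 tested genes were higher and 1 lower (median log2 change 0.10), and by total reads none was higher and 2 were lower. Birc5, or survivin, an IAP family gene known for its role in mitosis, was lower, at 5.59, 6.69 and 6.42 FPKM in vehicle and 0.576, 1.07 and 2.32 FPKM in nanoparticle libraries 1 to 3 (log2 change -1.71, adjusted p = 0.00419 by limma). Naip2, an inflammasome sensor with IAP repeats, was higher (log2 change 1.06, adjusted p = 0.0183 by limma), as was Htra2, a mitochondrial IAP antagonist (0.75, adjusted p = 0.0448 by limma). Both lost the call by total reads (limma adjusted p = 0.0581 and 0.144), and Naip2 has near-identical relatives that could share its reads. Without nanoparticle library 1 this list had 3 higher and 4 lower genes. None of the 3 tested genes of the other TNFAIP list passed (limma, 0 in either direction, with 1 lower at an unadjusted p under 0.05, 1 lower by limma-voom on recovered reads, 2 lower by total reads and 2 lower without nanoparticle library 1), among them Tnfaip8l2, a relative of Tnfaip8, at 36.2 to 38.3 FPKM in vehicle and 15.07 to 28.9 FPKM with nanoparticles (log2 change -0.74, adjusted p = 0.0518 by limma). By total reads Tnfaip8l2 passed as lower (-1.07, adjusted p = 0.00886 by limma), as it did without nanoparticle library 1 (-0.48, adjusted p = 0.00255 by limma).

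In the list of the TNF receptor complex, the linear ubiquitin ligase LUBAC and the kinases, 6 of 17 tested genes were higher and 0 lower (median log2 change 0.24). At an unadjusted p under 0.05 and by limma-voom, 0 were lower as well, but by total reads the counts became 4 higher and 3 lower, and without nanoparticle library 1 they were 10 and 2. Cflar, the caspase-8 inhibitor cFLIP, was at 7.98, 8.16 and 8.53 FPKM in vehicle and 91.8, 40.5 and 32.7 FPKM in nanoparticle libraries 1 to 3 (log2 change 2.46, SE 0.36, adjusted p = 0.00340 by limma). Nanoparticle library 1 was more than 2 times the next, and without it the log2 change was 2.02. Rnf31, the catalytic subunit of LUBAC, rose by a log2 change of 1.14 and the kinase Tbk1 by 0.85. Map3k14, which encodes NIK, was at 2.74 to 4.01 FPKM in vehicle and 3.97 to 5.31 FPKM with nanoparticles, and Ripk1 at 6.84 to 7.42 and 5.39 to 8.47 FPKM, neither past the threshold (limma adjusted p = 0.109 and 0.671). Without nanoparticle library 1 both passed, Map3k14 as higher (log2 change 0.49, adjusted p = 0.0160 by limma) and Ripk1 as lower (-0.27, adjusted p = 0.0176 by limma).

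Of the receptors that bind TRAF proteins, 4 of 10 tested genes were higher and 0 lower (median log2 change 0.09), with 0 lower also at an unadjusted p under 0.05 and by limma-voom. By total reads 4 were higher and 2 lower, and without nanoparticle library 1 the counts were 5 and 2. Cd40, the costimulatory receptor that signals through TRAF2, TRAF3, TRAF5 and TRAF6, was at 0.987, 1.24 and 1.52 FPKM in vehicle and 107, 93.3 and 89.4 FPKM in nanoparticle libraries 1 to 3 (log2 change 5.44, SE 0.13, adjusted p = 8.6e-06 by limma). TNF receptor 2 (Tnfrsf1b) rose from 145, 135 and 141 FPKM to 752, 502 and 458 FPKM (log2 change 1.98, adjusted p = 0.000906 by limma), and Tnfrsf9 (4-1BB), which signals through TRAF1 and TRAF2, rose by a log2 change of 2.65 (adjusted p = 0.00330 by limma). TNF receptor 1 (Tnfrsf1a) was at 51.6 to 55.2 FPKM in vehicle and 49.6 to 59.5 FPKM with nanoparticles, a log2 change of 0.06 (adjusted p = 0.704 by limma).

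**Figure D4:**
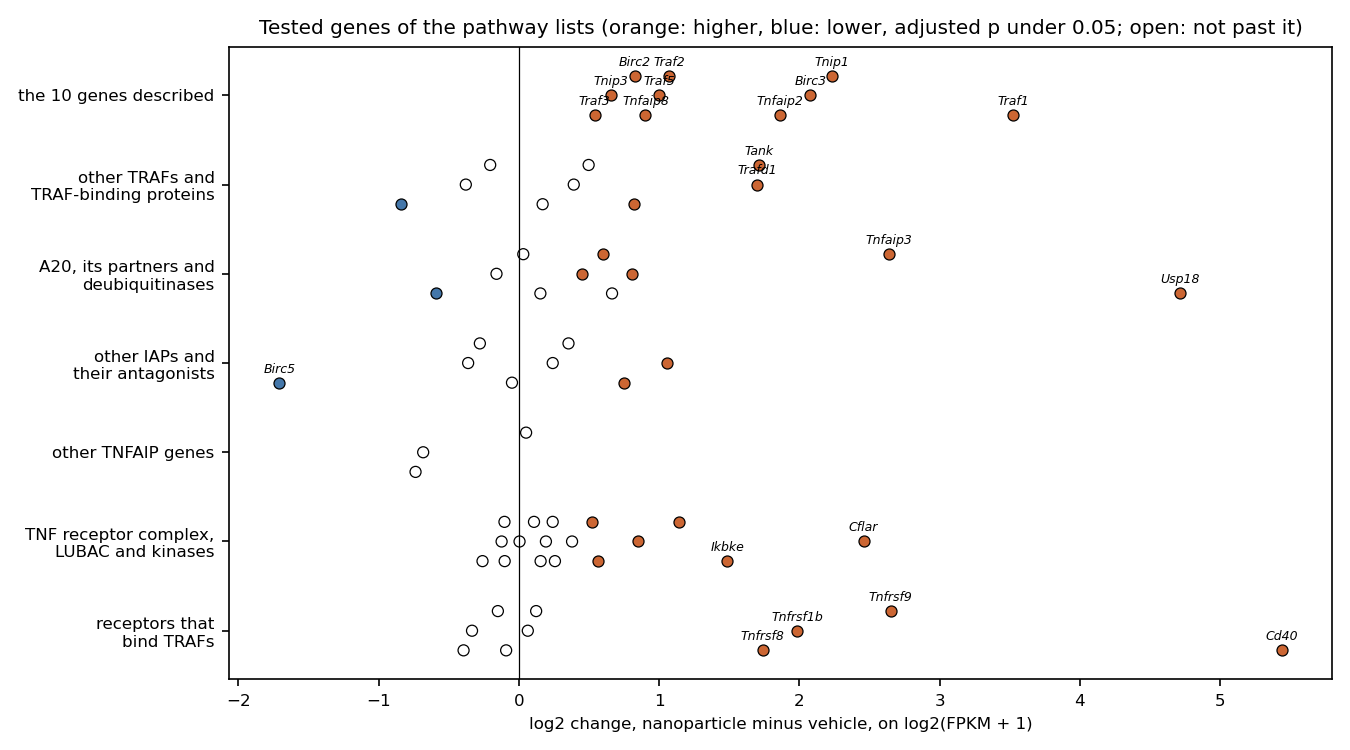
Log2 change (x axis, nanoparticle minus vehicle on log2(FPKM + 1)) of the 10 genes in the top line and of the tested genes of the 6 pathway lists below, with orange for genes higher and blue for genes lower past an adjusted p of 0.05 and open circles for the rest. The top line holds 10 orange points and no other, and of the 57 points in the lower lines 20 are orange and 3 are blue.

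For the most abundant treated member of each family, the tested genes with the nearest profile over the 6 libraries were found by the Euclidean distance between log2(FPKM + 1) values, each centred on its own vehicle mean, among 10672 genes. For Traf1 they were Casp4, an inflammatory caspase (distance 0.218), and Cd83, a maturation marker of dendritic cells (0.220). For Tnip1 they were the pseudogene B230303A05Rik (0.123) and the kinase Src (0.198). B230303A05Rik was at 0.160 to 0.203 FPKM in vehicle and 3.97 to 5.37 FPKM treated, and reached 1 FPKM only in the treated libraries. At such low levels log2(FPKM + 1) understates the change, so its fold change was larger than that of Tnip1 (ratio of means 4.92). For Birc3 they were Xkr8, which encodes a phospholipid scramblase (0.207), and Mreg (0.210). For Tnfaip2 they were Nampt, an enzyme of NAD synthesis (0.154), and Irak3, an inhibitor of Toll-like receptor signalling (0.175). These 6 libraries differ mainly by treatment. Such nearness chiefly says that the change on the log2(FPKM + 1) scale and the place of nanoparticle library 1 were alike.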

How the data were processed

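RNA sequencing values of 6 libraries (3 vehicle, 3 nanoparticle, 12 hours) were used, with groups and replicate numbers from the sample titles and treatment labels. The submitters' processing notes list CASAVA, STAR 2.5, HTSeq, edgeR 3.16.5 and DESeq2 with the builds mm10 and hg19, without saying which tool made which value. The 2 tables deposited by the authors hold 140388 identical values, although one is named for read counts. They were treated as FPKM, a unit inferred from the values, because 95.8% to 96.1% of the values above 0 became whole reads (within 0.01) when multiplied by GENCODE M21 exon length and 1 scale per library. These scales followed median-of-ratios size factors, so the deposited FPKM assume that most genes do not change. For 385 of 407 abundant genes without whole reads, a shorter length that gave them was used. Intervals from reads would cover counting error only.

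The filter asked for 1 FPKM or more in 3 or more libraries and left 10682 genes. Differences were tested with limma 3.58.1 in R 4.3.3 (lmFit, eBayes with trend) on log2(FPKM + 1), a scale that understates the change of low genes, with Benjamini-Hochberg adjustment over all tested genes and a threshold of 0.05. The script was tested on simulated data. Their noise followed the vehicle libraries in both groups, so the test did not cover the wider spread of the nanoparticle libraries. Exact permutation tests of the ratios used scipy 1.17.1. Replicate libraries differed by more than sampling noise (chi-square per degree of freedom at least 2.91), so none was counted as a duplicate. Other alternatives were the pseudocount, filters, scalings, moderation, a replicate block, each library left out, and, added after the data were seen, limma-voom on recovered reads.

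The 10 genes and the lists were chosen with earlier results of these data known. Of each list, up to 3 genes past the threshold with separated groups and the smallest adjusted p were named, and Tnfaip3 and Cd40 in any case. Tnip2, Xiap, Map3k14, Ripk1, Tnfrsf1a and Tnfaip8l2 were named after their values were seen.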

Additional observations from a re-analysis of the deposited data

How the results depend on the processing

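All 10 genes kept their direction in every alternative run, and 8 of them (all but Traf3 and Tnip3) also stayed past the threshold; Birc2, with a mean under 5 FPKM, was not tested under the stricter filter. The number of the 10 genes called higher ran from 8 to 10 and of those called lower was 0 throughout. Over all genes, 3550 passed the threshold, 2198 with a mean of at least 5 FPKM, where fewer genes were tested. Leaving out 1 library at a time gave 2141 to 6923 genes, with the highest count without nanoparticle library 1. The difference in the log2 ratio of Traf5 to Traf2 ran from -0.1654 to 0.0246 with 1 library left out and was above 0 only without nanoparticle library 1; the cause was not tested. The other 4 ratios kept their direction in the alternatives run for them (pseudocount, equal FPKM sum and each library left out). A replicate block gave 2785 genes and 10 of the 10, with Traf3 at a limma adjusted p of 0.0499. The samples share only a number: deviations of same-numbered libraries correlated at 0.07, 0.11 and -0.06, and not every library correlated best with its own number. Counting error was 6.26% of the value at the fewest reads (255, Birc2 in vehicle) and 5.22% at the fewest in a nanoparticle library (367, Birc2).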
